A study of Drosophila melanogaster with 120 samples.

Results

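LanA and alpha-Spec are 2 genes of Drosophila melanogaster whose products lie on either side of the plasma membrane. Each was followed through 1 of the 16637 transcripts on the array, FBtr0077014 for LanA (CG10236) and FBtr0072789 for alpha-Spec (CG1977), and both were chosen by name. RefSeq lists 1 transcript of LanA and 4 of alpha-Spec. Whether the array holds further transcripts of either gene could not be told from the names available. The flies were unmated females from 3 selection populations, in which mating had been delayed to 28 and later to 40 days of age so that reproductive lifespan lengthened, and from 3 control populations mated at 14 days. All populations descended from the same wild-caught stock and had been kept at 25 °C, and RNA was sampled after 35 generations of selection. Heads and abdomens were taken on days 1, 5, 15, 30 and 50 with 2 biological replicates of each population, which gave 120 single-dye arrays in 20 groups of 6. Where heads or abdomens are counted below, each is 1 array. The labels speak of pairs of selection and control populations, but do not say that a shared number marks a pair. A title gives 1 of the day-15 heads of control population 3 as replicate 3, where its characteristics give biological replicate 1, and the characteristics were followed.

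LanA encodes an alpha chain of laminin, a trimer of alpha, beta and gamma chains that is laid down early in basement membranes, the matrix sheets beneath epithelia and around muscle, fat body, gut, nerves and ovarian follicles. The other alpha chain of the fly is encoded by wb, and both alpha chains assemble with the products of LanB1 and LanB2. Integrins and dystroglycan bind laminin at the cell surface and pass the contact on to the cytoskeleton. On the inner side of the membrane, alpha-Spec encodes the alpha chain of spectrin, which pairs with beta-Spec, or with the heavy beta chain encoded by kst, into flexible rods. Those rods cross-link actin under the membrane and hold membrane proteins in place through ankyrin. In the ovary alpha-Spectrin is also a component of the fusome, an organelle that branches through dividing germline cysts.

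Values below are log2 intensities that the authors had normalized with RMA, so a difference of 1 is a 2-fold difference in intensity, and the levels of different transcripts cannot be set against each other. The medians of the arrays lay between 9.45 and 10.03 in heads and between 9.92 and 10.44 in abdomens, and single values ran from 7.01 to 15.83. Since whole populations had been selected, a population, not a fly or an array, counted as 1 replicate. Calls are at an adjusted p of 0.05 in limma with Benjamini-Hochberg adjustment over all 16637 transcripts. Nothing in the labels says whether the biological replicates came from separate cultures. In whole heads and abdomens, fewer cells that express a gene and less RNA per cell cannot be told apart.

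Some arrays went against their labelled day. A day-1 score was 0 for an array like the median of the later days and 1 for an array like the median of day 1, with LanA and alpha-Spec left out of the score. Both day-1 heads of control population 3 scored −0.0504 and −0.0437, on the side of the later days. Among later heads, 1 day-30 array of selection population 3 scored 1.05, 1 day-30 array of control population 3 scored 0.941 and 1 day-50 array of control population 2 scored 1.23, on the side of day 1. The day-1 arrays of control population 1 lay between the profiles, at 0.468 and 0.455 in heads and at 0.542 and 0.536 in abdomens. The other 8 day-1 heads, 45 later heads, 10 day-1 abdomens and 48 later abdomens scored on the side of their label. LanA values of the arrays off their label follow, with several results given without those arrays.

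The genes of both families could be followed only through these transcripts. Of 48 genes in 6 lists (laminin subunits, other basement membrane components, laminin receptors, spectrins, membrane skeleton partners and integrin adhesion), LanA and alpha-Spec alone could be tied to a transcript of the array, and the others are not analysed here. Of 43 marker genes of eye, neurons, ovary, fat body, haemocytes and muscle, 1 could be tied to a transcript. It was Fatp1, from the fat body list, so the tissue labels were not checked against defining markers.

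LanA in the abdomen was highest on the first day of adult life. In selection abdomens the 6 arrays had a lowest, median and highest value of 13.60, 13.78 and 14.00 on day 1, 12.23, 12.53 and 13.08 on day 5, 12.00, 12.62 and 12.84 on day 15, 12.16, 12.55 and 12.82 on day 30, and 12.47, 12.69 and 12.87 on day 50. In control abdomens the same 3 values were 13.41, 13.58 and 13.82 on day 1, 12.65, 12.81 and 12.92 on day 5, 11.63, 12.24 and 12.69 on day 15, 11.96, 12.43 and 12.70 on day 30, and 11.92, 12.17 and 12.57 on day 50. The 12 day-1 abdomens of both regimes, at 13.41 to 14.00, all lay above the 48 later ones, at 11.63 to 13.08. Such a separation of the day-1 arrays from all later arrays was found for 5.18% of all transcripts in the abdomen. The 2 day-1 abdomens of control population 1, which scored between the profiles, had LanA values of 13.75 and 13.41, above every later abdomen.

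LanA in the abdomen fell by 1.00 on the log2 scale on day 5 relative to day 1 (95% interval −1.24 to −0.76, 1.99-fold, adjusted p = 1.9e-07). It was lower on day 5 in 6 of 6 populations, by 0.67 to 1.59. This was the interval of broad change in the abdomen, since 50.3% of all transcripts passed the test, 23.8% passed it in the lower direction, and 21.2% were lower in all 6 populations. LanA's change was lower than that of all but 10.5% of transcripts. The fall passed the test in selection abdomens (−1.19, 95% interval −1.53 to −0.85, adjusted p = 3.5e-06) and in control abdomens (−0.80, −1.14 to −0.46, adjusted p = 0.000484), where 43.4% and 36.4% of transcripts passed, and the difference between the regimes in this change did not (−0.39, −0.87 to 0.09, adjusted p = 0.798). The call remained under each of the 15 alternatives that were run for it.

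**Figure D1:**
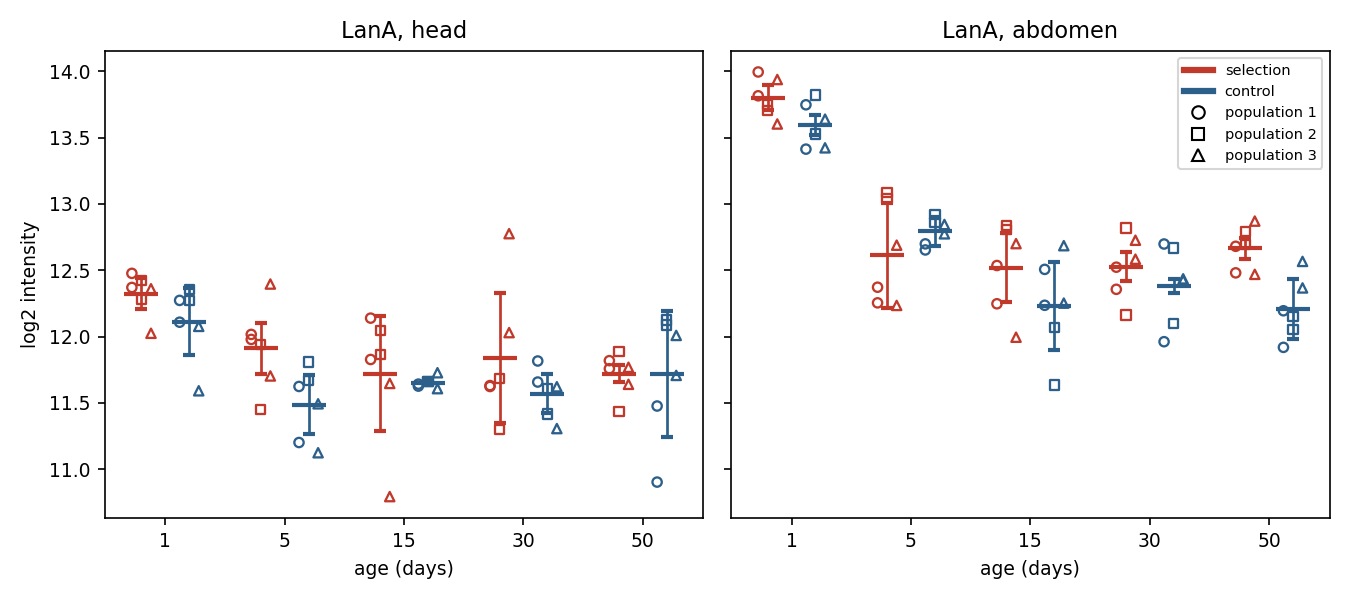
LanA level (log2 intensity) by age in days, heads on the left and abdomens on the right. Each symbol is 1 array (circle, square and triangle for populations 1, 2 and 3; selection in red to the left of control in blue), and bars with whiskers are the mean ± SD of 3 population averages. All 12 day-1 abdomens lie at or above 13.41 and every later abdomen at or below 13.08, while day-1 heads overlap with later heads.

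LanA in the head also averaged highest on day 1. In selection heads the lowest, median and highest of 6 arrays were 12.02, 12.37 and 12.48 on day 1, 11.45, 11.96 and 12.40 on day 5, 10.79, 11.85 and 12.14 on day 15, 11.30, 11.66 and 12.78 on day 30, and 11.44, 11.76 and 11.89 on day 50. In control heads they were 11.59, 12.19 and 12.36 on day 1, 11.12, 11.56 and 11.81 on day 5, 11.61, 11.65 and 11.73 on day 15, 11.31, 11.61 and 11.82 on day 30, and 10.90, 11.86 and 12.12 on day 50. The ranges overlapped: 37 of the 48 later heads lay above the lowest day-1 head, an array of control population 3 that scored on the side of the later days. The highest LanA value of all 60 heads, 12.78, came from the day-30 array of selection population 3 that scored on the side of day 1. The day-50 array of control population 2 that scored likewise read 12.09, and the day-30 array of control population 3 read 11.62, both within the range of the later heads that kept to their label (10.79 to 12.40). The 12.09 also lay within the range of the day-1 heads that kept to their label (12.02 to 12.48). The day-1 heads of control population 3 read 11.59 and 12.08, and those of control population 1, between the profiles, read 12.11 and 12.27.

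From these values LanA in the head fell by 0.52 on day 5 relative to day 1 (95% interval −0.87 to −0.17, 1.43-fold, adjusted p = 0.0335). All 6 populations were lower on day 5, by 0.14 to 0.78, a pattern shared by 7.47% of transcripts in the head. In the head 19.5% of transcripts passed the test for this interval. Without the arrays that scored on the opposite side, which leaves control population 3 with no day-1 heads, the difference was −0.57 (adjusted p = 0.00936). Without those between the profiles as well, which leaves control population 2 as the only control with day-1 heads, it was −0.54 (adjusted p = 0.0433). The call was lost without control population 1 (−0.48, adjusted p = 0.0953), selection population 1 (−0.51, 0.116), control population 2 (−0.53, 0.0917) or selection population 2 (−0.46, 0.131). It was also lost on the arrays of biological replicate 1 by themselves (−0.51, 0.238). Neither regime passed by itself (selection −0.41, adjusted p = 0.251, and control −0.63, adjusted p = 0.222). Of all transcripts, 17.4% passed in selection heads and 0.018% in control heads.

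The step in LanA was smaller in the head than in the abdomen. Fitted to each population's difference between head and abdomen, the change of day 5 minus day 1 differed by 0.48 (95% interval 0.13 to 0.83, adjusted p = 0.0270), and 41.3% of transcripts passed that test. The 3 selection populations differed in how far apart the tissues moved. LanA changed by −0.43 in heads and −1.59 in abdomens of selection population 1, by −0.66 and −0.67 in those of selection population 2, and by −0.14 and −1.31 in those of selection population 3. In control populations 1, 2 and 3 the changes were −0.78, −0.58 and −0.53 in heads and −0.90, −0.78 and −0.72 in abdomens. Leaving out any population but selection population 2 ended the call, with differences of 0.38 to 0.49 and adjusted p of 0.0516 to 0.142. Without the arrays on the opposite side the difference was 0.47 (adjusted p = 0.0299), and without those between as well it was 0.55 (adjusted p = 0.0405).

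**Figure D2:**
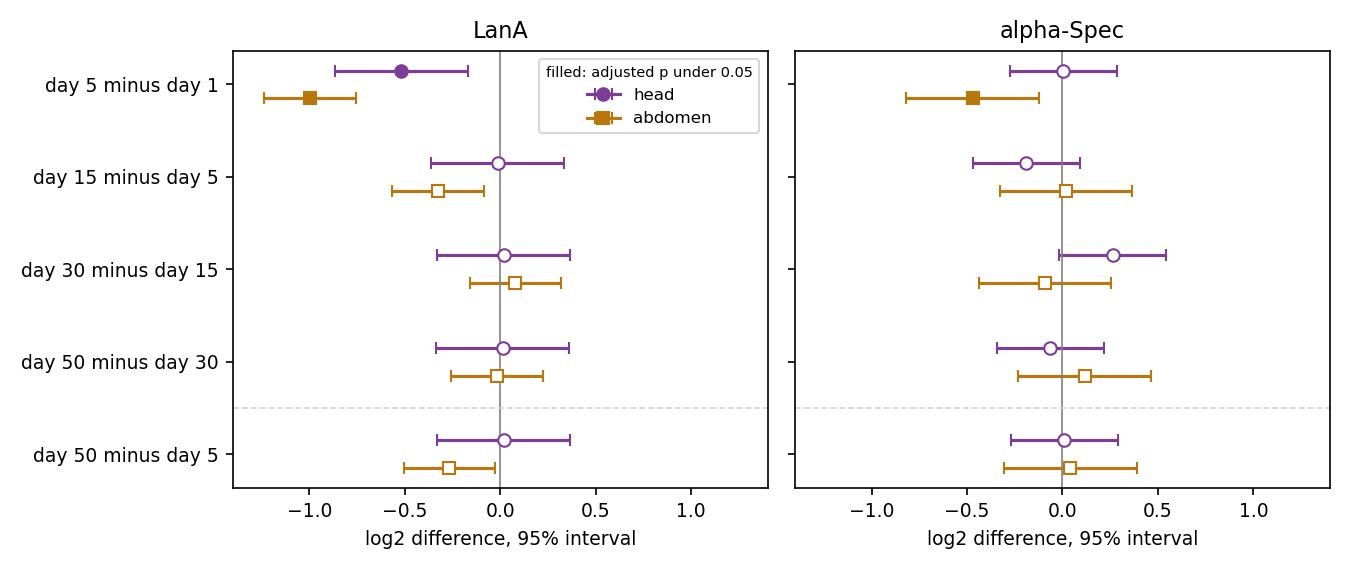
Difference in level between ages (log2, later minus earlier day) with its 95% interval from limma, for LanA on the left and alpha-Spec on the right. Heads (circles) are drawn above abdomens (squares), and filled symbols passed an adjusted p of 0.05. The 3 filled symbols all belong to day 5 minus day 1: LanA in both tissues and alpha-Spec in the abdomen.

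After day 5 no change of LanA passed the test. In the abdomen the population averages stood at 13.70 ± 0.14 on day 1, 12.70 ± 0.28 on day 5, 12.38 ± 0.31 on day 15, 12.45 ± 0.11 on day 30 and 12.44 ± 0.29 on day 50 (SD, n = 6). Day 15 minus day 5 gave −0.33 (unadjusted p = 0.00984, adjusted p = 0.253), lower in 5 of 6 populations, with 0.733% of transcripts called. Day 50 minus day 5, the span of ageing in mature flies, gave −0.27 (95% interval −0.51 to −0.03, adjusted p = 0.516), with 0.914% of transcripts called. In the head the averages were 12.22 ± 0.21, 11.70 ± 0.30, 11.69 ± 0.28, 11.71 ± 0.36 and 11.72 ± 0.30 on days 1, 5, 15, 30 and 50, and day 50 minus day 5 was 0.02 (−0.33 to 0.37, adjusted p = 0.996), with 1.76% of transcripts called, and 0.02 (adjusted p = 0.971) without the arrays on the opposite side. The later values lay close together: placed in order over both tissues, neighbouring averages of LanA differed by more than the larger of their SDs only below day 1 of the abdomen (a gap of 1.00) and below day 1 of the head (a gap of 0.50).

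Day accounted for most of the spread of LanA in the abdomen. Of the sum of squares over the 60 abdomens, 76.3% lay between days, 2.63% between regimes, 6.53% in population by day and 8.65% between biological replicates. In heads 29.2% lay between days, 6.47% between regimes, 33.2% in population by day and 22.0% between biological replicates. The F test over the 5 days passed for LanA in the abdomen (adjusted p = 4.4e-09, with 50.9% of transcripts called) and did not in the head (adjusted p = 0.0724, with 21% called). In the head that test passed without the arrays on the opposite side (adjusted p = 0.0167) and not when those between were left out as well (adjusted p = 0.132).

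alpha-Spec in the abdomen was likewise highest on day 1. The lowest, median and highest of 6 selection abdomens were 10.56, 10.94 and 10.97 on day 1, 9.95, 10.26 and 10.76 on day 5, 10.28, 10.44 and 10.64 on day 15, 9.76, 10.24 and 10.70 on day 30, and 10.30, 10.50 and 10.73 on day 50. In control abdomens they were 10.46, 10.87 and 11.17 on day 1, 10.26, 10.50 and 10.64 on day 5, 9.66, 10.56 and 10.77 on day 15, 9.86, 10.44 and 10.77 on day 30, and 9.95, 10.40 and 10.66 on day 50. The array values of day 1 and later days overlapped, with 24 of 48 later abdomens above the lowest day-1 abdomen. The averages of the 6 populations did not: they lay at 10.75 to 11.06 on day 1 and at 9.80 to 10.70 later, a separation that 11.2% of transcripts showed.

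The level of alpha-Spec in the abdomen fell by 0.47 on day 5 relative to day 1 (95% interval −0.82 to −0.12, 1.39-fold, adjusted p = 0.0219). It was lower in 6 of 6 populations, by 0.15 to 0.79, as were 21.2% of transcripts. In this contrast 50.3% of transcripts passed, 23.8% of them all in the lower direction. The size was moderate for the tissue, since 18.9% of transcripts had a lower value in this contrast. The call was lost without selection population 1 (−0.41, adjusted p = 0.103), control population 2 (−0.38, 0.0642) or selection population 3 (−0.45, 0.0907). It was also lost on the arrays of biological replicate 1 (−0.48, 0.0714) or biological replicate 2 (−0.47, 0.0545) by themselves. Neither regime passed alone (selection −0.57, adjusted p = 0.0566, and control −0.37, adjusted p = 0.254), where 43.4% and 36.4% of transcripts passed. Across the 60 abdomens the level of alpha-Spec went with the median of the array, with a Pearson correlation of 0.744 over 60 arrays, against 0.256 for LanA. With each array centred on its median the difference was −0.43 (adjusted p = 0.00987), and after quantile normalization it was also −0.43 (adjusted p = 0.00544).

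**Figure D3:**
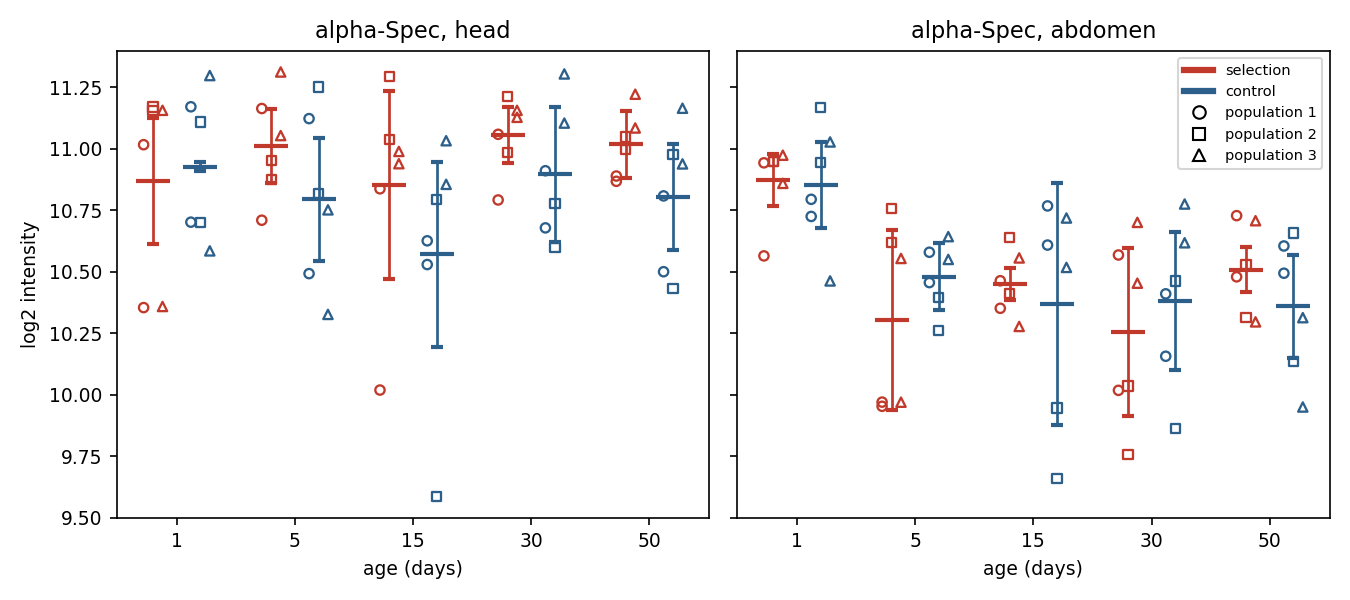
alpha-Spec level (log2 intensity) by age in days, heads on the left and abdomens on the right, with symbols, colours and whiskers as for LanA (1 symbol an array, mean ± SD of 3 population averages). The abdomens stand highest on day 1, at 10.46 to 11.17, with later arrays reaching up to 10.77, and the heads show no step at day 1.

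In the head no step of alpha-Spec passed the test. In selection heads the lowest, median and highest values were 10.35, 11.09 and 11.17 on day 1, 10.71, 11.00 and 11.31 on day 5, 10.02, 10.96 and 11.29 on day 15, 10.79, 11.09 and 11.21 on day 30, and 10.87, 11.02 and 11.22 on day 50. In control heads they were 10.58, 10.90 and 11.30 on day 1, 10.33, 10.78 and 11.25 on day 5, 9.59, 10.71 and 11.03 on day 15, 10.60, 10.84 and 11.30 on day 30, and 10.43, 10.87 and 11.16 on day 50. All days overlapped, and the lowest arrays fell on day 15. Day 5 minus day 1 was 0.00 (95% interval −0.28 to 0.28, adjusted p = 0.987), higher in 3 populations and lower in 3, and −0.02 (adjusted p = 0.931) without the arrays on the opposite side. None of the other intervals passed: day 15 minus day 5 gave −0.19 (−0.47 to 0.09, adjusted p = 0.848), day 30 minus day 15 gave 0.26 (−0.02 to 0.54, adjusted p = 0.684) and day 50 minus day 5 gave 0.01 (−0.27 to 0.29, adjusted p = 0.997). These intervals leave room for changes of up to 0.47 downwards and 0.54 upwards.

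The lowest alpha-Spec value of all heads, 9.59, came from a day-15 array of control population 2 whose other replicate read 10.79, the widest gap of any replicate pair of either gene (1.21). The median gap between replicates was 0.257 for alpha-Spec and 0.183 for LanA in heads, and 0.226 for alpha-Spec and 0.208 for LanA in abdomens. Biological replicates held 46.4% of the sum of squares of alpha-Spec in heads, and days held 7.32%. In abdomens days held 33.9%, population by day 35.7% and biological replicates 21.1%. From day 5 to day 50 the abdominal averages of alpha-Spec were 10.39 ± 0.27, 10.41 ± 0.32, 10.32 ± 0.29 and 10.43 ± 0.17 (SD, n = 6), and day 50 minus day 5 was 0.04 (−0.31 to 0.39, adjusted p = 0.990).

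For alpha-Spec the test of a tissue difference in this step lay near the threshold. The head minus abdomen difference in the change between day 5 and day 1 was 0.48 (95% interval 0.07 to 0.88), with an adjusted p of 0.0572 as deposited. It passed after quantile normalization (0.47, adjusted p = 0.0255), with arrays centred on their medians (0.48, 0.0240), over the brighter transcripts alone (0.48, 0.0410), without the intensity trend (0.48, 0.0394), without selection population 2 (0.65, 0.0201), without control population 3 (0.60, 0.0288) and without the arrays scored opposite or between (0.67, 0.0314). Other populations moved it the other way: leaving out control population 2 gave 0.32 (adjusted p = 0.289), and leaving out selection population 1 or 3 gave 0.39 (0.206) or 0.38 (0.238).

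The genes lay on opposite sides in the comparison of tissues. Averaged over the 5 days, LanA read 11.96, 11.83 and 11.91 in heads of selection populations 1, 2 and 3 and 12.73, 12.97 and 12.78 in their abdomens, and 11.63, 11.87 and 11.63 in heads of control populations 1, 2 and 3 and 12.60, 12.58 and 12.74 in their abdomens. alpha-Spec read 10.77, 11.07 and 11.04 in heads of the selection populations and 10.40, 10.50 and 10.53 in their abdomens, and 10.75, 10.70 and 10.94 in heads of the control populations and 10.56, 10.35 and 10.56 in their abdomens. LanA was lower in the head in 6 of 6 populations, as were 58% of all transcripts, and alpha-Spec was higher in the head in 6 of 6, as were 22.3%.

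Head minus abdomen was −0.93 for LanA (95% interval −1.08 to −0.78, adjusted p = 3e-08) and 0.40 for alpha-Spec (0.23 to 0.56, adjusted p = 0.000253). Most transcripts differed between these tissues: 87.4% were called, 24.5% higher and 62.9% lower in the head, and the median of all transcripts was −0.25. After quantile normalization over all arrays 36.7% were called higher and 41.4% lower, with a median of −0.03, and after median centring 52.3% were called higher and 35.3% lower, with a median of 0.18. LanA stayed lower in the head under both, by −0.31 (adjusted p = 0.00117) and −0.50 (adjusted p = 1.1e-05), and alpha-Spec stayed higher, by 0.96 and 0.83. So the size of either difference depended strongly on the scaling, and its sign did not. It ran from −0.93 to −0.31 for LanA and from 0.40 to 0.96 for alpha-Spec. Without the arrays on the opposite side control population 3 had no day-1 heads, and over days 5 to 50 of all populations the difference was −0.81 for LanA (adjusted p = 6.9e-07) and 0.49 for alpha-Spec (adjusted p = 0.000149).

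**Figure D4:**
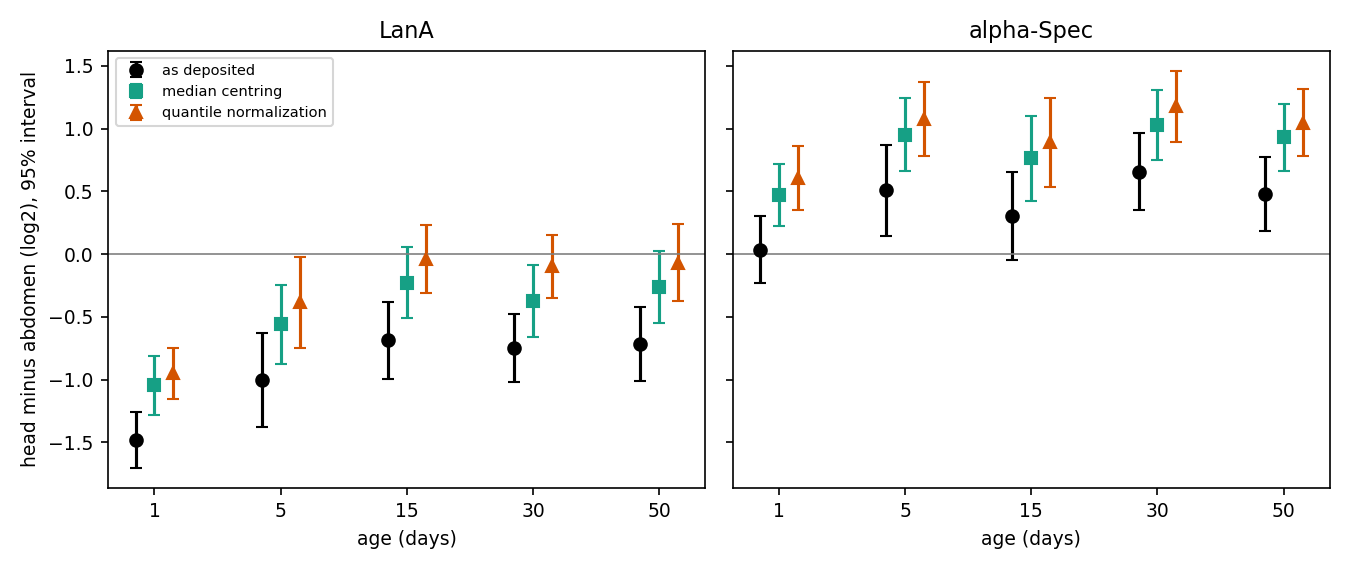
Head minus abdomen difference (log2, with 95% interval) by age in days for LanA on the left and alpha-Spec on the right, under the 3 scalings of the arrays. For LanA the difference as deposited is widest on day 1, at −1.48, and is near 0 from day 15 on after quantile normalization. For alpha-Spec it is near 0 on day 1 as deposited and above 0 on every day under the other scalings.

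Day by day, LanA was lower in the head by −1.48 on day 1, −1.003 on day 5, −0.69 on day 15, −0.75 on day 30 and −0.72 on day 50, and passed on each day as deposited, when 64.5%, 77.7%, 69.4%, 75.1% and 78.6% of transcripts did. Day 1 was the only day on which the call held under every scaling, at −0.95 after quantile normalization and −1.05 after median centring. After quantile normalization the difference was −0.38 (adjusted p = 0.0606), −0.04 (0.799), −0.10 (0.472) and −0.07 (0.678) on days 5, 15, 30 and 50. After median centring day 15 (−0.23, adjusted p = 0.127) and day 50 (−0.26, 0.0811) no longer passed. On day 50 control population 2 had 12.11 in the head and 12.10 in the abdomen, and its head average includes the array that scored on the side of day 1.

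alpha-Spec was at much the same value in both tissues on day 1 (0.03, 95% interval −0.23 to 0.30, adjusted p = 0.809), and it was higher in the head on day 5 (0.51, adjusted p = 0.0149), day 30 (0.66, 0.00106) and day 50 (0.48, 0.00652). Day 15 gave 0.30 (adjusted p = 0.113). After quantile normalization all 5 days passed, at 0.61, 1.08, 0.89, 1.18 and 1.05, and after median centring they did too, at 0.47, 0.95, 0.76, 1.03 and 0.93. The call on day 5 was lost without control population 2 (0.47, adjusted p = 0.0505) or selection population 3 (0.43, 0.0521) and on the arrays of biological replicate 2 (0.47, 0.0574), and the call on day 50 on those of biological replicate 1 (0.38, 0.0824).

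Selection and control populations were then compared. Over the 5 days LanA averaged 11.90 ± 0.07 in selection heads and 11.71 ± 0.14 in control heads (SD, n = 3 each), a difference of 0.19 (95% interval −0.02 to 0.41, adjusted p = 0.340). In abdomens it averaged 12.83 ± 0.13 under selection and 12.64 ± 0.09 in control, a difference of 0.18 (−0.02 to 0.39, adjusted p = 1.00). alpha-Spec differed by 0.16 in heads (−0.10 to 0.42, adjusted p = 0.486) and by −0.01 in abdomens (−0.30 to 0.28, adjusted p = 1.00). Without the arrays on the opposite side, over days 5 to 50 of all populations, the head difference was 0.17 for LanA (adjusted p = 0.357) and 0.21 for alpha-Spec (adjusted p = 0.342). No transcript of the array passed limma's adjusted threshold for this comparison in either tissue, so 0% were called. At limma's unadjusted threshold of 0.05 there were 2755 transcripts in heads and 225 in abdomens, and neither gene was among them in either tissue. With 59 transcripts called in heads by the fit of all arrays with population as a random block, LanA was still not among them (adjusted p = 0.212). That fit used a correlation of 0.0223 within populations, so arrays counted almost as separate replicates. Its calls therefore do not rest on the population as the replicate.

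**Figure D5:**
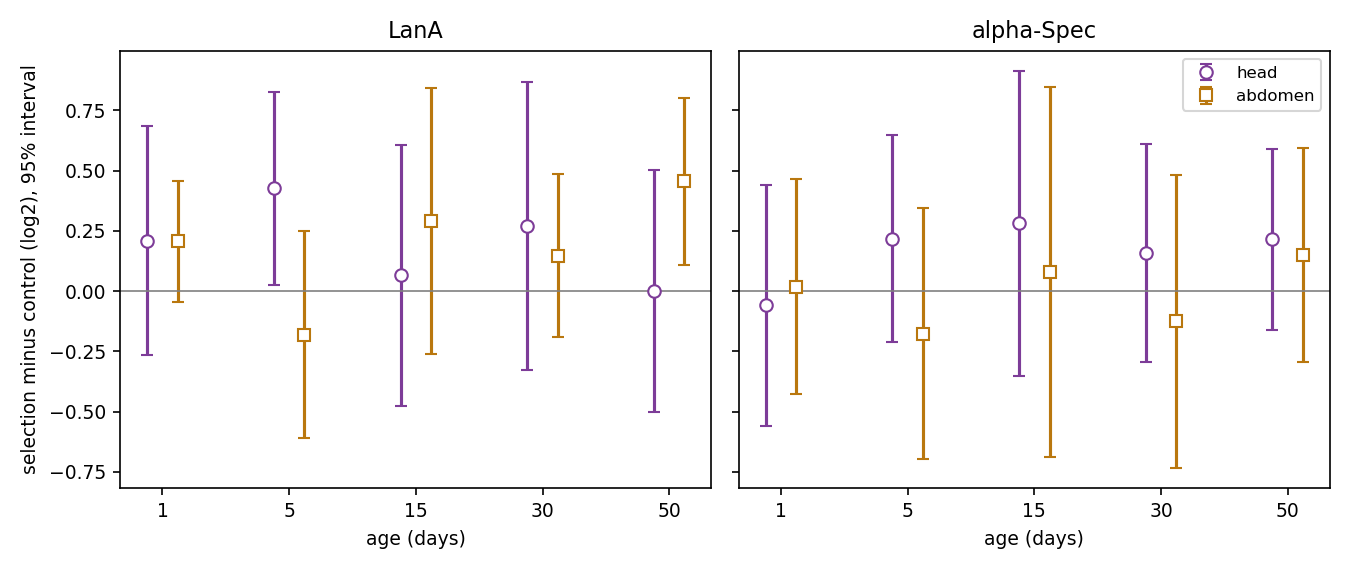
Selection minus control difference (log2, with 95% interval, 3 populations each) by age in days for LanA on the left and alpha-Spec on the right, heads in purple circles and abdomens in ochre squares. For LanA the intervals of the abdomen on day 50 and of the head on day 5 lie above 0, and none of the differences passed after adjustment.

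On days 1, 30 and 50 the population averages of LanA in the abdomen did not overlap between the regimes, and no difference passed after adjustment. On day 50 selection populations 1, 2 and 3 averaged 12.58, 12.74 and 12.67 and control populations 1, 2 and 3 averaged 12.06, 12.10 and 12.47, with no overlap, a difference of 0.46 (95% interval 0.11 to 0.80, unadjusted p = 0.0144, adjusted p = 0.788). Selection and control populations did not overlap on that day for 12.7% of all transcripts, and 6% were higher under selection. On day 1 the averages were 13.73 to 13.91 under selection and 13.53 to 13.68 in control, without overlap, as for 8.45% of transcripts (0.21, adjusted p = 1.00). On day 30 they were 12.44 to 12.66 under selection and 12.33 to 12.43 in control, without overlap, as for 5.3% of transcripts (0.15, adjusted p = 0.998). On day 5 the order was the other way round (−0.18, adjusted p = 0.831), and on day 15 the difference was 0.29 (adjusted p = 0.958), both with overlap.

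In heads the LanA averages of the regimes overlapped on every day. The widest difference was on day 5, with 12.00, 11.69 and 12.05 in selection populations 1, 2 and 3 and 11.41, 11.74 and 11.31 in control populations 1, 2 and 3 (0.43, 95% interval 0.03 to 0.83, adjusted p = 0.184). On day 1 it was 0.21 (adjusted p = 0.772), and 0.07 (adjusted p = 0.991) without both day-1 heads of control population 3, that is with 2 control populations. On day 30 it was 0.27 (adjusted p = 0.975), and 0.20 (adjusted p = 0.859) without the arrays on the opposite side. alpha-Spec averages overlapped between the regimes on all days in both tissues, with differences from −0.06 to 0.28 in heads and from −0.18 to 0.15 in abdomens.

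The change of LanA between day 5 and day 50 in the abdomen did not pass the test of a difference between the regimes. It changed by 0.27, −0.32 and 0.21 in selection populations 1, 2 and 3 (mean 0.05 ± 0.32, SD, n = 3) and by −0.62, −0.79 and −0.34 in control populations 1, 2 and 3 (mean −0.58 ± 0.23). The difference of the changes was 0.64 (95% interval 0.16 to 1.12, unadjusted p = 0.0119, adjusted p = 0.888). In this contrast limma called 0 transcripts, 840 had an unadjusted p under 0.05, and LanA's value exceeded that of 96.6% of transcripts. In heads the same difference was −0.43 (−1.12 to 0.27, adjusted p = 1.00), and for alpha-Spec it was 0.33 (−0.37 to 1.02, adjusted p = 0.888) in abdomens and −0.00 (−0.56 to 0.56) in heads. Neither gene differed detectably between head and abdomen in its regime difference over days (LanA 0.01, −0.31 to 0.33; alpha-Spec 0.17, −0.15 to 0.49) or in its change between day 50 and day 5 (LanA 0.28, −0.07 to 0.64; alpha-Spec −0.03, −0.44 to 0.37).

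Over the 30 averages of population and day, the correlation between LanA and alpha-Spec was 0.176 in heads (Pearson r, with a Spearman rho of 0.157) and 0.727 in abdomens (rho 0.676). Over days 5 to 50 alone r was 0.225 in heads and 0.460 in abdomens, and once the mean of each day had been taken off it was 0.197 in heads and 0.510 in abdomens. These averages share their arrays and populations, and the correlations are a description. Across abdomen arrays alpha-Spec also went with the array median (r = 0.744, against 0.256 for LanA). The correlation between the genes was not computed on rescaled arrays or set against other pairs of transcripts.

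The transcripts most like LanA over the same 30 abdominal averages were FBtr0089791 (Pearson r = 0.970), FBtr0110856 (0.966) and FBtr0112705 (0.963), which the sources used here tie to no single gene. They fell by 1.79, 1.46 and 1.69 on day 5 relative to day 1 in the abdomen. Among the 16 transcripts that could be tied to 1 gene, Fatp1, a fatty acid transport protein gene, was nearest to LanA in the abdomen (FBtr0080133, r = 0.899) and fell by 1.36 there, and CG31178 followed at 0.399. Those most like LanA in the head were FBtr0082513 (0.897), FBtr0089952 (0.897) and FBtr0091524 (0.873), and among named genes CG16974 (0.748) and rdx (0.669), a substrate adaptor of a ubiquitin ligase. On day 5 relative to day 1, FBtr0082513 changed by −0.62 in the head (adjusted p = 0.0158) and by 0.65 in the abdomen (adjusted p = 0.00395). rdx was at −0.33 in the head (adjusted p = 0.259) and rose by 0.90 in the abdomen. FBtr0089952 and CG16974 were at 0.09 and 0.01 in the abdomen, without passing. FBtr0091524 changed by −0.98 in the head (adjusted p = 0.00235) and was at −0.32 in the abdomen (adjusted p = 0.0897).

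For alpha-Spec the nearest transcripts in the abdomen were FBtr0086586 (r = 0.941), FBtr0079807 (0.939) and FBtr0086587 (0.937), with changes of −0.80, −0.91 and −0.71 between day 5 and day 1. Fatp1 was again the nearest named gene (0.820), ahead of CG16974 (0.552). In the head the nearest were FBtr0290317 (0.828), FBtr0114590 (0.821) and FBtr0085627 (0.814), and among named genes Fatp1 (0.736) and Uba1 (0.721), which encodes the ubiquitin-activating enzyme.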

How the data were processed

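RNA of heads was hybridised to 60 arrays and RNA of abdomens to another 60. As deposited, each value is a log2 intensity from RMA, a method that usually combines background correction, quantile normalization and probe summary, run by the authors per the submitters' processing notes. The RMA version, the build, the annotation and which arrays were normalized jointly are details not given in the sources used here. Arrays have no read depth, and the populations, not the arrays, were the replicates of the main tests. Gene names came from synonyms in RefSeq's gene table (assembly Release 6 plus ISO1 MT), which tied 16 transcripts to 1 gene and 28 to several.

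Biological replicates were averaged within population and day. limma 3.58.1 in R 4.3.3 was fitted to all 16637 transcripts with an intensity trend, two-sided, with Benjamini-Hochberg adjustment. Day contrasts used the 30 averages of a tissue with population, day and regime by day. Regime contrasts used 6 population averages, and tissue contrasts 12 averages with population as a block or the head minus abdomen differences. The day-1 score used 200 transcripts each way, chosen on populations of other numbers. A score below 0.25 on day 1 or above 0.75 later was called opposite. The fits were tested on simulated arrays with independent noise and implanted shifts. Those arrays held none off their labelled day and no shifts of whole arrays, so that test does not speak to either. Transcripts were named as most alike by Pearson correlation over the 30 averages, the first 3 of all and the first 2 with a symbol. Alternatives were the array scaling, a brightness filter, no trend, each population or replicate left out, the arrays above left out, and blocks. The members and lists were chosen with earlier results of these data known.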

Additional observations from a re-analysis of the deposited data

Results flagged for a closer look

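In 40 groups of 6 arrays (2 genes, 20 groups each), 5 arrays lay farther from their group than Dixon's 95% criterion allows, and chance flags about 1 in 20 groups. LanA in selection heads on day 15 had 10.79 in biological replicate 1 of population 3, with the other arrays at 11.65 to 12.14. LanA in control heads on day 1 had 11.59 in replicate 1 of population 3, an array whose day-1 score lay on the side of the later days. alpha-Spec in control heads on day 15 had 9.59 in replicate 2 of population 2, and in selection heads on day 15 it had 10.02 in replicate 2 of population 1. alpha-Spec in selection abdomens on day 1 had 10.56 in replicate 1 of population 1.

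The change of LanA between day 5 and day 1 differed between head and abdomen by 0.48 (adjusted p = 0.0270, limma), being smaller in the head. That call was kept in 7 of the 14 alternatives run for it, and in 1 of the 6 fits that left out 1 population.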

How the results depend on the processing

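Of 86 differences tested for LanA and alpha-Spec, 16 were called as deposited, and 17 alternatives gave 1276 further values. Among these, 1232 kept the side of the threshold, 27 lost a call, 17 gained one and 0 reversed a called difference. In addition, 118 uncalled values in 34 results changed sign, none larger than 0.316 in size. The cause of each change below was not tested, beyond the fewer samples of a fit that leaves some out.

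For day 5 minus day 1, LanA in heads ranged from −0.58 to −0.46 with 1 population left out and was −0.51 with biological replicate 1 by itself. alpha-Spec in abdomens ranged from −0.55 to −0.38 with 1 population left out, and was −0.48 and −0.47 with biological replicate 1 and 2. alpha-Spec in selection abdomens passed after quantile normalization (−0.45) and, at −0.57, with the brightness filter and without the trend, and ranged from −0.72 to −0.46 with 1 population left out. For the head minus abdomen difference in that change, LanA ranged from 0.38 to 0.67 with 1 population left out and was 0.54 and 0.42 with biological replicate 1 and 2. For alpha-Spec the range was 0.32 to 0.65, and it passed after quantile normalization (0.47), after centring (0.48), with the filter and without the trend (0.48 each) and without the arrays scored opposite or between (0.67).

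For head minus abdomen on single days, quantile normalization gave LanA −0.385, −0.039, −0.0965 and −0.069 on days 5, 15, 30 and 50, all uncalled, and alpha-Spec 0.61 and 0.89 on days 1 and 15, both called. Centring gave LanA −0.23 and −0.26 on days 15 and 50, uncalled, and alpha-Spec 0.47 and 0.76 on days 1 and 15, called. With biological replicate 1 alpha-Spec was 0.52 on day 15 (called) and 0.38 on day 50 (uncalled), and with replicate 2 it was 0.47 on day 5 (uncalled), where 1 population left out gave 0.42 to 0.62.

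The number of transcripts called for day 5 minus day 1 in heads, 3249, was 560 with biological replicate 1 and 1612 to 4020 with 1 population left out. For day 50 minus day 5 in heads, 293 transcripts were called, against 835 without the arrays scored opposite, 55 with biological replicate 1, and 103, 118, 125 and 166 without selection populations 1, 2 and 3 and control population 1. In abdomens 152 were called, against 34 and 74 with biological replicates 2 and 1, 75 without selection population 1 or 2, 45 without selection population 3, and 98 and 88 without control populations 2 and 3.

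For selection and control populations of the same number, the correlations of their deviations were 0.256, 0.0647 and 0.314 in heads. In abdomens they were −0.0335, 0.352 and 0.436. Populations of unlike numbers ran from −0.350 to 0.180 in heads and from −0.593 to 0.336 in abdomens. Whether a shared number marks a pair was not tested. With that number as replicate block the regime difference of LanA over days was 0.19 in heads (adjusted p = 0.290) and 0.18 in abdomens (1.00), and no regime call of either gene was gained. With biological replicate number as replicate block, alpha-Spec in selection abdomens passed for day 5 minus day 1 (−0.57, adjusted p = 0.0109). A search of promoters for motifs, with its shorter window, was not run because no sequence was used here.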
